A study of Mus musculus with 6 samples.

Results

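The macrophage lineage transcription factors described here are 9 genes, Sall1, Mef2c, Mef2a, Irf8, Spi1, Maf, Runx1, Cebpa and Cebpb, listed by name and all found among the 19848 genes of the deposited RNA table. They were followed in 13052 brain immune cells, isolated from female C57BL/6 mice by digestion and a density gradient. The assay was CITE-seq, in which antibodies carrying barcodes are sequenced along with the RNA of each single cell. A total of 24 mice, 6 per group, were combined into 12 pools, so that each of 4 groups had 3 pools marked by hashtag antibodies. The groups were young mice (12 weeks) and aged mice (72 weeks), each either as controls with their gut microbiota or with the microbiota depleted by antibiotics. Each age had its own well of the droplet instrument, so age and well cannot be told apart. Within each well, controls carried hashtags 1 to 3 and antibiotic mice hashtags 4 to 6, so an effect of the arm and one of its hashtags cannot be told apart. A pool is the replicate throughout, and each value is the SCT value per cell, the depth-corrected UMI value of the deposited table, averaged over a pool's cells of that type. P-values measure the spread between these pools.

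Spi1 encodes PU.1, an ETS factor that opens macrophage enhancers and is needed for the whole myeloid lineage. Irf8 binds beside PU.1 and is needed for normal microglia, and Runx1 and the C/EBP factors Cebpa and Cebpb act in myeloid progenitors and in their progeny. Sall1 is a zinc-finger factor that marks microglia among brain macrophages and maintains their identity. Mef2c and Mef2a are MADS-box factors whose binding motif is common in microglial enhancers, and Maf (c-Maf) is a bZIP factor of mature tissue macrophages.

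The types are those of the deposited cell table, whose column names follow a sorting scheme on CD45, CD11b, Ly6C and B220. There were 9403 microglia, 506 border-associated macrophages (BAM), 634 Ly6CLow cells, 389 Ly6CHigh cells, 352 Ly6C+Ly6G+ cells and 1768 lymphoid cells. The lymphoid cells were 487 B cells, 214 CD4+ cells, 728 CD8+ cells, 330 innate lymphoid cells (ILCs) and 9 NK cells. Microglia carried their defining marker P2ry12 at 10.6, and BAM carried Mrc1 at 6.19, against 0.0234 in microglia. Ly6C+Ly6G+ cells had S100a8 at 746 and Ly6g at 5.69, as neutrophils do. Cells had a median of 6809 raw UMIs in young and 7118 in aged microglia. The median was 13257.5 in young against 951 in aged Ly6CHigh cells, and 31.7% of aged against 4.38% of young Ly6CLow cells were under 2000 UMIs. Depth therefore moved with age in the Ly6C types. The wells shared 59 cell barcodes.

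By the RefSeq annotation of GRCm38.p6, the assembly that mm10 denotes, Irf8 spans chr8:120736358-120756694, Maf chr8:115703253-115706894 and Sall1 chr8:89027242-89044162. Runx1 spans chr16:92601466-92826074 and Mef2c chr13:83504017-83667079. Mef2a spans chr7:67231163-67376456 and Cebpa chr7:35119293-35121928. Spi1 spans chr2:91082374-91115759 and Cebpb chr2:167688915-167690432. All of them are protein-coding genes.

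The types had been defined in the same cells, so the levels across types below are a description without a test. Sall1 stood highest in microglia, at 1.44 ± 0.0879 (SD, n = 12 pools), with pools between 1.35 and 1.65. BAM followed at 0.274 ± 0.189 (SD, n = 12), with pools from 0.0227 to 0.603, and no BAM pool reached a microglia pool. The remaining types lay between 0.0289 (CD8+) and 0.0917 (B cells), with overlapping pools. The share of cells with a Sall1 value above 0 was 67.8% in microglia (median 6934 raw UMIs) and 16.2% in BAM (median 7610.5). In CD8+ cells, a lymphoid type that should lack it, the share was 3.43% at a median of 7096.5 raw UMIs. The Sall1 level in BAM was 19.2% of that in microglia, and the 8 microglia markers stood in BAM at a median of 28.2% and up to 63.1% of theirs, P2ry12 at 23.0%. In CD8+ cells Sall1 was at 2.76% and the 8 markers at 2.41% to 2.99% of the microglia level. The part that free microglial RNA or attached cells have in the low Sall1 values outside microglia was not tested.

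Mef2c was also highest in microglia, at 6.00 ± 0.272 (SD, n = 12), but B cells came close, at 4.85 ± 0.911 (SD, n = 12), and BAM at 4.38 ± 0.651 (SD, n = 12). The B cell pools, 3.65 to 6.47, overlapped the microglia pools, 5.61 to 6.61, so these neighbours were not separated by their spread. Ly6CLow cells followed at 1.63 ± 0.263 (SD, n = 12), below every BAM pool. Mef2c is a known factor of B cell development as well. Mef2a fell away more evenly. It was 4.76 ± 0.256 (SD, n = 12) in microglia, 2.72 ± 0.494 in BAM and 1.81 ± 0.277 in Ly6CLow cells (SD, n = 12 each). The lowest Mef2a pool of microglia, 4.52, was above the highest BAM pool, 3.57, while every later pair of neighbours overlapped.

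Cebpa, the C/EBP factor of early myeloid commitment, followed the resident macrophages. It stood at 3.98 ± 0.465 (SD, n = 12) in microglia and 2.51 ± 1.05 (SD, n = 12) in BAM, and at 0.968 or below elsewhere. A single young control BAM pool of 17 cells was at 5.71, with the other BAM pools between 1.85 and 2.97. Runx1 declined in small steps, from 2.10 ± 0.231 (SD, n = 12) in microglia and 1.95 ± 0.341 (SD, n = 12) in BAM to 0.311 ± 0.128 (SD, n = 12) in CD8+ cells. Each Runx1 neighbour in that order overlapped the next.

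Spi1 and Cebpb had another order among the myeloid types, highest in the granulocyte and monocyte types, and the means of all lymphoid types lay below them. Cebpa and Runx1 did not divide the types so. In Ly6C+Ly6G+ cells they were at 0.405 and 0.499, below the 0.491 and 0.735 of B cells. Spi1 was 4.98 ± 1.78 (SD, n = 12) in Ly6C+Ly6G+ cells, 4.03 ± 1.07 in Ly6CHigh cells, 3.26 ± 0.538 in Ly6CLow cells, 2.95 ± 0.193 in microglia and 2.50 ± 0.234 in BAM (SD, n = 12 each). These 5 myeloid types overlapped their neighbours, and the lowest BAM pool, 2.12, was above the highest B cell pool, 1.83. PU.1 is known to act in B cells at a lower dose than in macrophages. Cebpb, an inducible C/EBP factor of monocytes and granulocytes, was 23.9 ± 7.99 (SD, n = 12) in Ly6C+Ly6G+ cells and 21.6 ± 6.73 (SD, n = 12) in Ly6CHigh cells. It was 7.09 ± 1.09 (SD, n = 12) in microglia and 1.78 ± 0.841 (SD, n = 12) in CD8+ cells.

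Irf8 did not follow the myeloid division. Microglia at 3.46 ± 0.372 (SD, n = 12) and B cells at 3.45 ± 1.59 (SD, n = 12) had close means over all pools, and BAM at 2.41 ± 0.548 and ILCs at 2.01 ± 1.04 (SD, n = 12 each) came next. The order of microglia and B cells differed between groups. B cell means were 4.80 and 3.98 in young control and antibiotic mice and 2.37 and 2.63 in aged ones, where microglia were at 3.72, 3.28, 3.83 and 3.02. The B cell type was a mixture of expression clusters. Its 318 cells in cluster 5, led by genes that include Cd79a and Ms4a1, had Irf8 at 2.32 (mean over cells). The other clusters with at least 20 B cells were at 1.39 to 2.22 (means over cells). All of these clusters lay below the type's mean over pools, and the B cells outside them had higher Irf8. Which cells those were was not tested. Ly6C+Ly6G+ cells were at 0.451 ± 0.440 (SD, n = 12). Irf8 is known to direct progenitors towards monocytes and away from granulocytes, and to act in B cells. Maf was highest in BAM at 4.74 ± 0.988 (SD, n = 12), then in microglia at 2.60 ± 0.212 (SD, n = 12). CD4+ cells, where c-Maf drives cytokine genes, came next at 1.66 ± 1.06 (SD, n = 11 pools with at least 5 such cells). A single young control pool of 17 BAM cells was at 2.71, inside the microglia range, and the other BAM pools were at 3.92 or more.

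**Figure D1:**
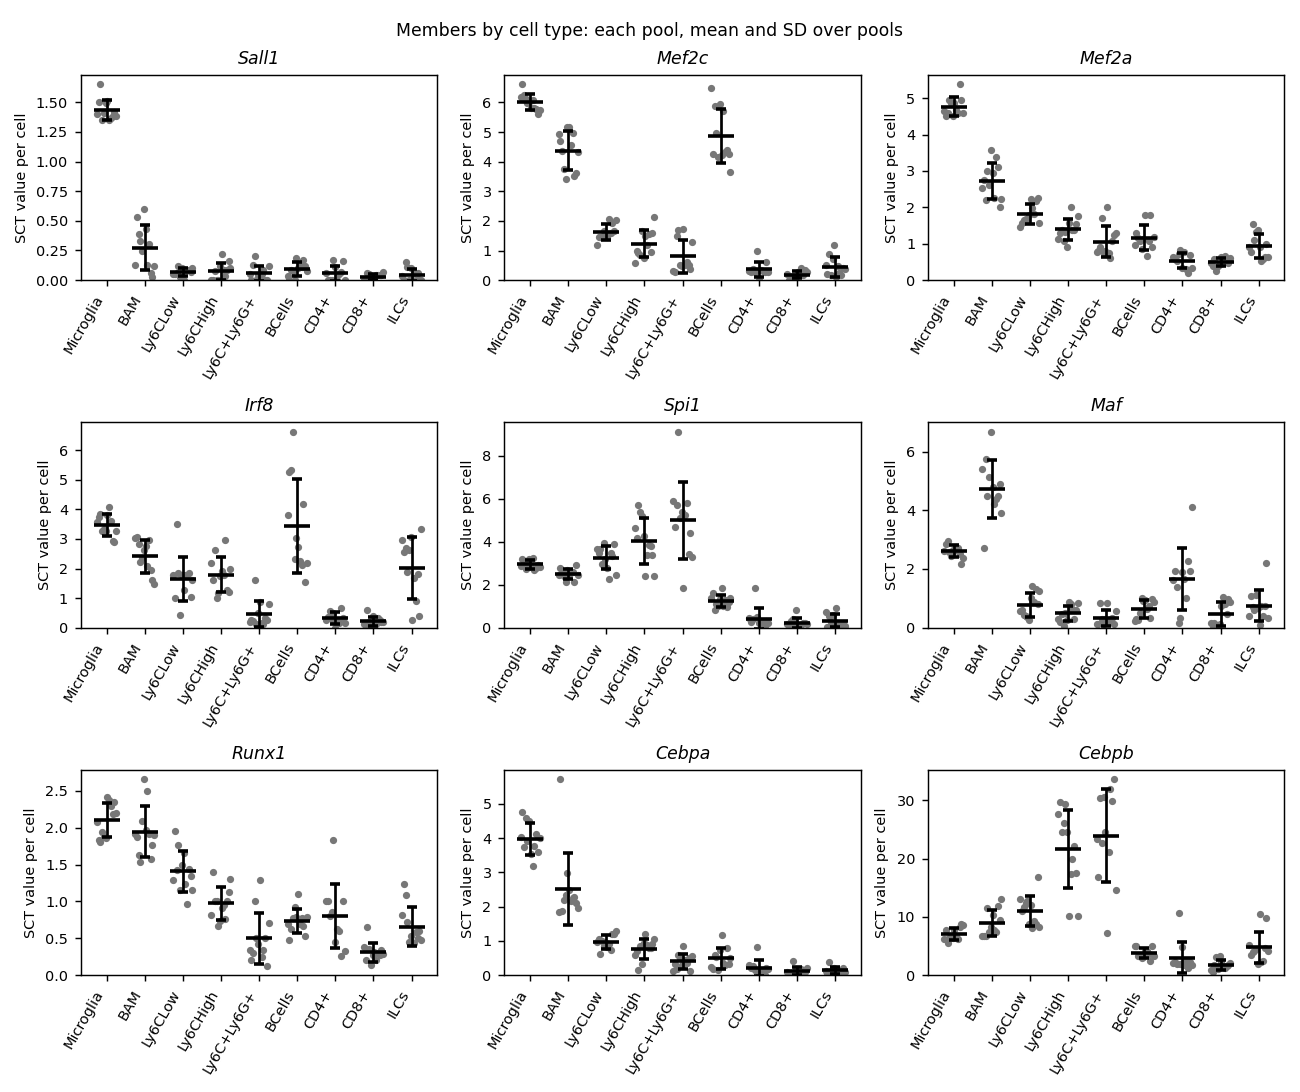
The vertical axis is the mean SCT value per cell and the horizontal axis the cell type. Points are pools with at least 5 cells of the type, and bars give the mean and SD over pools. Sall1 pools of microglia (1.35 to 1.65) stand apart from all others, Maf is highest in BAM, and Spi1 and Cebpb are highest in Ly6C+Ly6G+ and Ly6CHigh cells.

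The types were mixtures of the deposited expression clusters, and the members differed between clusters inside a type. These are means over cells, given as a description because the clusters were built from the same RNA. Among BAM, the 149 cells of cluster 8, led by genes that include Pf4, Lyve1, Mrc1 and Cd163, had Maf at 8.15. The 324 BAM of cluster 3, led by genes that include H2-Ab1 and Cd74, had it at 3.53. Irf8 and Spi1 hardly differed between them, at 2.47 against 2.40 and 2.46 against 2.59. Maf pool means were 5.20 to 10.6 in the former and 1.50 to 5.36 in the latter (12 pools each).

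Ly6CLow cells fell into 5 clusters of at least 20 cells. Cluster 3 held 316 of them, with Spi1 at 2.93 and Cebpb at 4.86. A further 103 belonged to cluster 6, whose leading genes over cells of all types include Fn1, Vcan and Lyz2, with Spi1 at 8.04 and Cebpb at 43.0. These 103 cells had Ace at 4.14, Treml4 at 2.87 and Ly6c2 at 0.388. The 205 Ly6CHigh cells of that cluster had them at 0.590, 0.346 and 15.1. Another 52 belonged to cluster 7, led by the cytotoxic genes Gzma and Ncr1, and had Irf8 at 7.69 with Spi1 at 0.173. The 79 cells of cluster 1 and 41 of cluster 9 were shallow, with medians of 1013 and 1245 raw UMIs, and had Maf at 1.99 and 1.63 against 0.497 in cluster 3. Those of cluster 9 also had the lymphoid genes Gata3 at 2.54 and Il7r at 6.61, against 0.00949 and 0.203 in cluster 3. Maf was above 0 in 93.7% and 97.6% of these shallow cells and in 22.8% of cluster 3, and Mef2c, Irf8, Spi1 and Cebpa were above 0 in 94.9% to 98.7% of them. Such values are corrected for depth, with covariates not given in the sources used here, and are no count of detected transcripts. Among ILCs, Irf8 was 3.47 in the 151 cells of cluster 7 and 0.185 in the 81 cells of cluster 9, whose leading genes include Gata3 and Il1rl1. Among microglia, 8041 were in cluster 0 and 1204 in the shallow cluster 1 (median 1452 raw UMIs). Sall1 was 1.58 in the former and 0.661 in the latter, while Mef2a was 4.50 and 6.68.

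**Figure D2:**
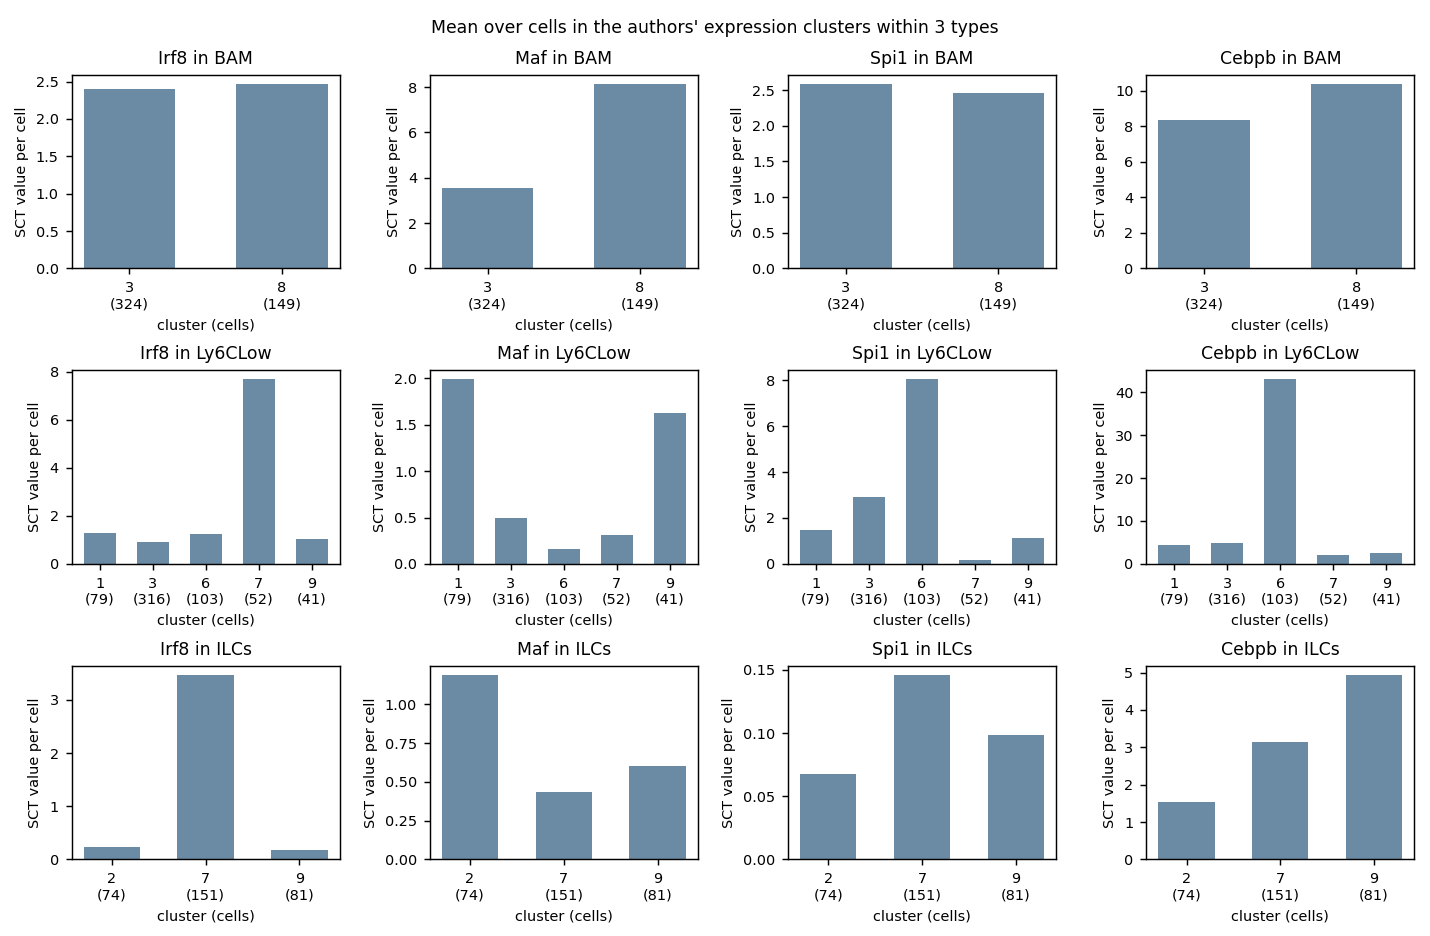
Bars show the mean SCT value over cells of Irf8, Maf, Spi1 and Cebpb in each expression cluster with at least 20 cells, within BAM, Ly6CLow cells and ILCs. The number of cells is in brackets under each cluster. Irf8 is high in cluster 7 of both Ly6CLow cells (7.69) and ILCs (3.47), and Maf in cluster 8 of BAM (8.15).

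The genes whose levels over the 9 types were most like a member's were searched among 6905 genes with a level of at least 0.2 in some type, by Pearson's r of log2(level + 0.05). The points share 2 libraries and differ in depth, so r is a description. For Sall1 they were Rilpl1 and Khdrbs3 (both r = 0.991). Csf1r (r = 0.995), the receptor for the macrophage growth factors, was among those most like Cebpa, and Csf2rb (r = 0.985), a cytokine receptor chain, among those most like Spi1. Tcf4 (r = 0.981) and Cd180 (r = 0.980) were most like Mef2c, and Dst (r = 0.992) and the TGF-beta receptor gene Tgfbr1 (r = 0.987) most like Mef2a. For Irf8 they were Cerk (r = 0.958) and Lat2 (r = 0.933), and for Runx1 Bmt2 (r = 0.996) and Ncoa3 (r = 0.975). For Maf they were D5Ertd579e (r = 0.938) and Srek1ip1 (r = 0.936), and for Cebpb Ptpre (r = 0.968) and Ndel1 (r = 0.961). Among the members, Mef2a and Cebpa were most alike (r = 0.96), and Maf and Cebpb least (r = -0.13).

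The study asked how depletion of the gut microbiota and age bear on brain immune cells. In microglia Irf8 was lower after antibiotics at both ages. The young control pools were at 3.58, 3.74 and 3.86, and the young antibiotic pools at 3.26, 3.33 and 3.26. The aged control pools were at 3.81, 4.07 and 3.60, and the aged antibiotic pools at 2.93, 2.88 and 3.26. The highest antibiotic pool lay below the lowest control pool at each age. Pools did not overlap for 16.1% of all tested genes in young mice, 22.1% in aged mice and 4.67% at both ages in the same direction. In aged microglia Irf8 fell by 0.34 (log2, SE 0.0625, limma adjusted p = 0.00610), from 3.83 ± 0.235 to 3.02 ± 0.208 (SD, n = 3 each). Over both ages it fell by 0.26 (SE 0.0442, limma adjusted p = 0.00215). In young microglia the difference was -0.18 (SE 0.0625, limma adjusted p = 0.291) and did not pass. The difference between the ages, -0.16 (SE 0.0883, limma adjusted p = 0.814), did not pass either, so the effect was not shown to depend on age. The log2 changes are on the scale of log2(value + 0.05).

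Maf moved the same way by less. Its microglia pools were at 2.62, 2.86 and 2.95 in young controls, 2.57, 2.45 and 2.63 in young antibiotic mice, 2.62, 2.76 and 2.71 in aged controls and 2.52, 2.18 and 2.36 in aged antibiotic mice. The young groups overlapped at 2.62 and 2.63, and the aged groups did not overlap, as for 22.1% of all tested genes. Over both ages Maf fell by 0.17 (SE 0.0448, limma adjusted p = 0.0366). Within an age it did not pass, with -0.14 (limma adjusted p = 0.459) in young and -0.19 (limma adjusted p = 0.0943) in aged microglia. The call over both ages was lost with no filter on low values (adjusted p = 0.0907), when sums were made equal between pools (adjusted p = 0.0552) and without any of 8 single pools, namely young control 2 or 3, young antibiotic 1 or 2, aged control 1, 2 or 3, or aged antibiotic 2 (up to adjusted p = 0.101).

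The other 7 members did not pass an antibiotic comparison in microglia. Cebpb was at 6.88 ± 0.821 in aged controls and 8.55 ± 0.285 in aged antibiotic mice (SD, n = 3 each), a difference of 0.32 (SE 0.0983, limma adjusted p = 0.0804) with pools that did not overlap. Without young control 2, and in cluster 0 alone, this difference passed (adjusted p = 0.0346 and 0.0381). In young mice it was 0.01 (limma adjusted p = 0.984). Mef2c pools of antibiotic mice lay below those of controls at each age, but by only -0.07 and -0.05 (limma adjusted p = 0.706 and 0.709). Pools did not overlap for 16.1% of all tested genes in young mice and 22.1% in aged mice. For 4.67% this held at both ages in the same direction. Sall1, Mef2a, Spi1, Runx1 and Cebpa differed by between -0.09 and 0.16. The background was 12 of 8759 genes (0.137%) in young mice, 283 (3.23%) in aged mice and 473 (5.40%) for the ages combined. Against it stood 0, 1 and 2 of the 9 members. Over both ages 189 genes rose and 284 fell, or 268 and 261 with sums made equal between pools. The median log2 change of the members was -0.04 in aged microglia and -0.04 over both ages, beside -0.01 for all genes in each. In the test of whether the 2 ages responded differently to antibiotics, 0 genes (0%) passed by limma, with 579 at an unadjusted p under 0.05.

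The shallow cluster 1 made up 10.7% and 9.76% of microglia in young control and antibiotic mice and 14.5% and 17.1% in aged ones, with Irf8 at 2.40 against 3.63 in cluster 0. Within cluster 0 alone the changes were as large, with Irf8 at -0.33 in aged microglia (adjusted p = 0.00175) and -0.26 over both ages (adjusted p = 0.000454). Maf was then at -0.24 in aged microglia (adjusted p = 0.0271). The 7 neutrophil markers in microglia summed to 0.628 to 0.712 per pool in aged controls and 1.08 to 3.02 in aged antibiotic mice, and to 2.25 to 6.32 and 2.34 to 20.4 in the young groups. Their part in the results was not tested. The 7 BAM markers summed to at most 0.105 in any microglia pool.

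**Figure D3:**
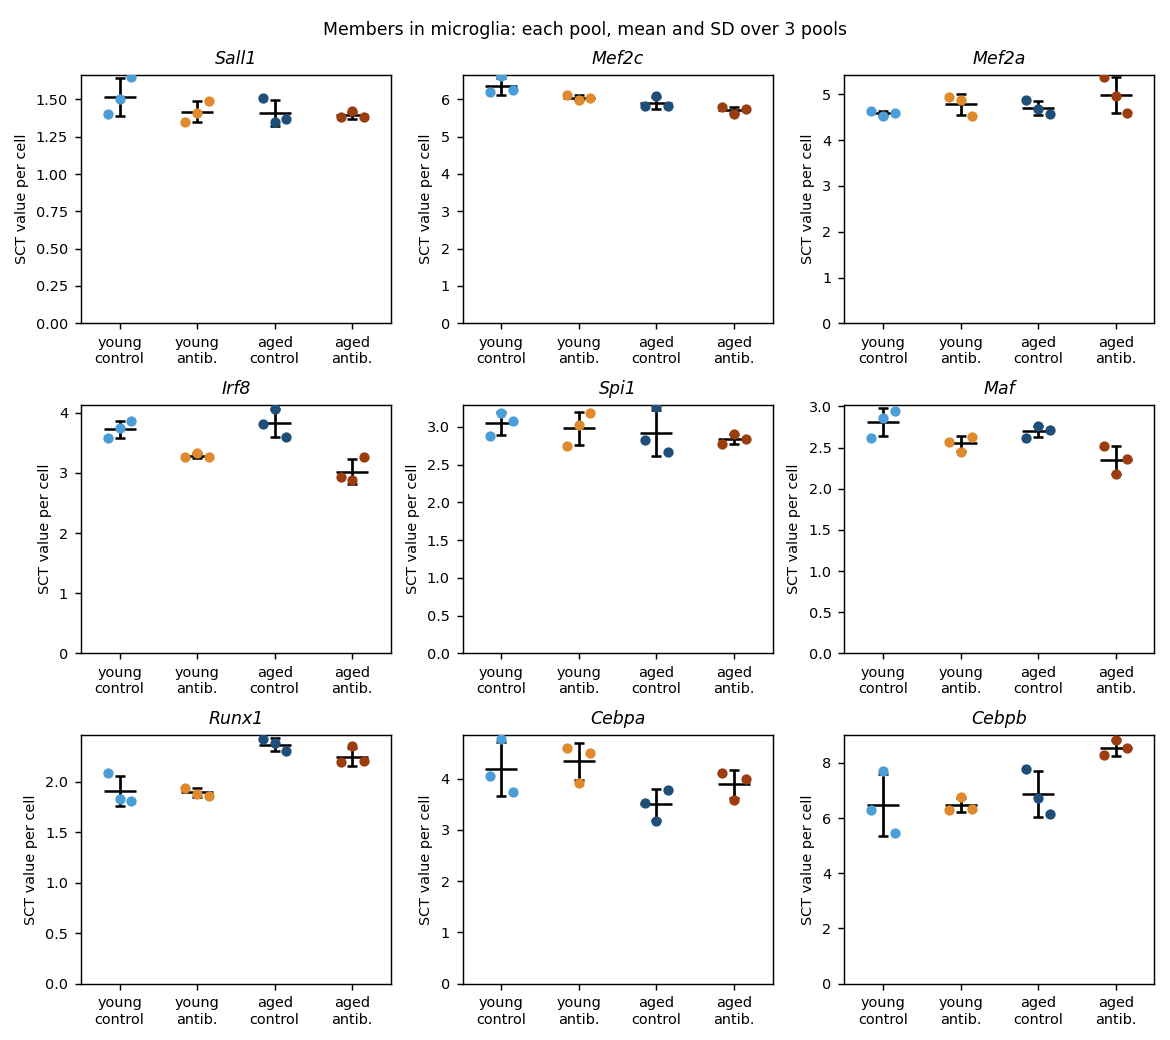
Each point is the mean SCT value per cell of a pool of microglia, by group, with the mean and SD over 3 pools. The antibiotic pools of Irf8 (2.88 to 3.33) lie below all control pools (3.58 to 4.07), and the aged pools of Runx1 (2.19 to 2.42) above all young pools (1.81 to 2.08).

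Related genes were taken from lists chosen by name. Over both ages 5.40% of all tested genes passed in microglia, so the list shares below are to be read beside it. Of the other members of the same families, 0 of 17 tested genes rose and 1 fell over both ages (5.88%), Sall3 (-0.18, SE 0.0484, limma adjusted p = 0.0321). Of 38 other macrophage and microglia regulators, 0 rose and 2 fell over both ages (5.26%). Zeb2, a zinc-finger repressor that sustains macrophage identity, fell by 0.43 in aged microglia (SE 0.0791, limma adjusted p = 0.00610) and by 0.33 over both ages (limma adjusted p = 0.00215), from 4.49 ± 0.546 to 3.32 ± 0.225 in aged mice (SD, n = 3 each). Bhlhe41 was at -0.21 over both ages (limma adjusted p = 0.0455), with a mean of 0.942 against 0.720 in young and 1.06 against 1.03 in aged mice. Of 11 upstream receptors and ligands none passed in either age or over both. Of 24 target genes 0 rose and 2 fell over both ages (8.33%). They were Gpr34 (-0.28, limma adjusted p = 0.00871) and P2ry13 (-0.16, limma adjusted p = 0.0251), both receptors of homeostatic microglia. In young mice alone none of the 4 lists had a called gene. The list medians over both ages ran from -0.05 to -0.02.

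With age, Runx1 rose in microglia in both arms. The young control pools were at 2.08, 1.83 and 1.81 and the aged control pools at 2.42, 2.38 and 2.30. The young antibiotic pools were at 1.94, 1.88 and 1.86 and the aged antibiotic pools at 2.19, 2.35 and 2.20. No aged pool overlapped a young pool of its arm, as for 19.6% of all tested genes in controls and 22.2% in antibiotic mice. In controls the rise was 0.31 (log2, SE 0.0602, limma adjusted p = 0.00747) and in antibiotic mice 0.24 (SE 0.0602, limma adjusted p = 0.0202). The call in antibiotic mice was lost without young antibiotic 2 or 3 or aged antibiotic 2 (adjusted p = 0.0596, 0.0718 and 0.101). Within cluster 0 alone the rises were 0.27 and 0.23 (adjusted p = 0.00740 and 0.0140).

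Cebpb rose with age in antibiotic mice. The young antibiotic pools were at 6.30, 6.76 and 6.34 and the aged antibiotic pools at 8.27, 8.84 and 8.54, without overlap, a rise of 0.40 (SE 0.0983, limma adjusted p = 0.0190). Pools of these 2 groups did not overlap for 22.2% of all tested genes. In controls the pools overlapped, at 6.29, 7.70 and 5.46 in young and 7.77, 6.72 and 6.15 in aged mice, a difference of 0.09 (SE 0.0983, limma adjusted p = 0.770). The age effect was not shown to differ between the arms, since the test of that difference, 0.31 (SE 0.139), had a limma adjusted p of 0.725. The call was lost with no filter on low values (adjusted p = 0.0997) and without young antibiotic 1 or 3 or aged antibiotic 2 (adjusted p = 0.0613, 0.0677 and 0.0767). Cebpa went the other way in controls, from 4.18 ± 0.531 to 3.49 ± 0.296 (SD, n = 3 each), with -0.25 (SE 0.0877, limma adjusted p = 0.174). Sall1, Mef2c, Mef2a, Irf8, Spi1 and Maf did not pass either, with changes between -0.12 and 0.06. Mef2c pools were lower in aged mice in each arm without overlap, as for 19.6% of all tested genes in controls and 22.2% in antibiotic mice. The Mef2c differences were only -0.10 and -0.08 (limma adjusted p = 0.465 and 0.470).

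The background of the age comparisons was 233 of 8759 genes (2.66%) in controls and 539 (6.15%) in antibiotic mice, against 1 and 2 of the 9 members. Of the called genes, 193 rose and 40 fell in controls, and 434 rose and 105 fell in antibiotic mice. The 8 microglia markers moved with age too, summing to 118 to 127 per pool in young and 101 to 118 in aged microglia. The 5 B cell markers, among them the immunoglobulin gene Igkc, summed to 0.342 to 0.464 in young and 1.05 to 1.28 in aged microglia. Their part in the results was not tested, and age and well cannot be told apart.

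**Figure D4:**
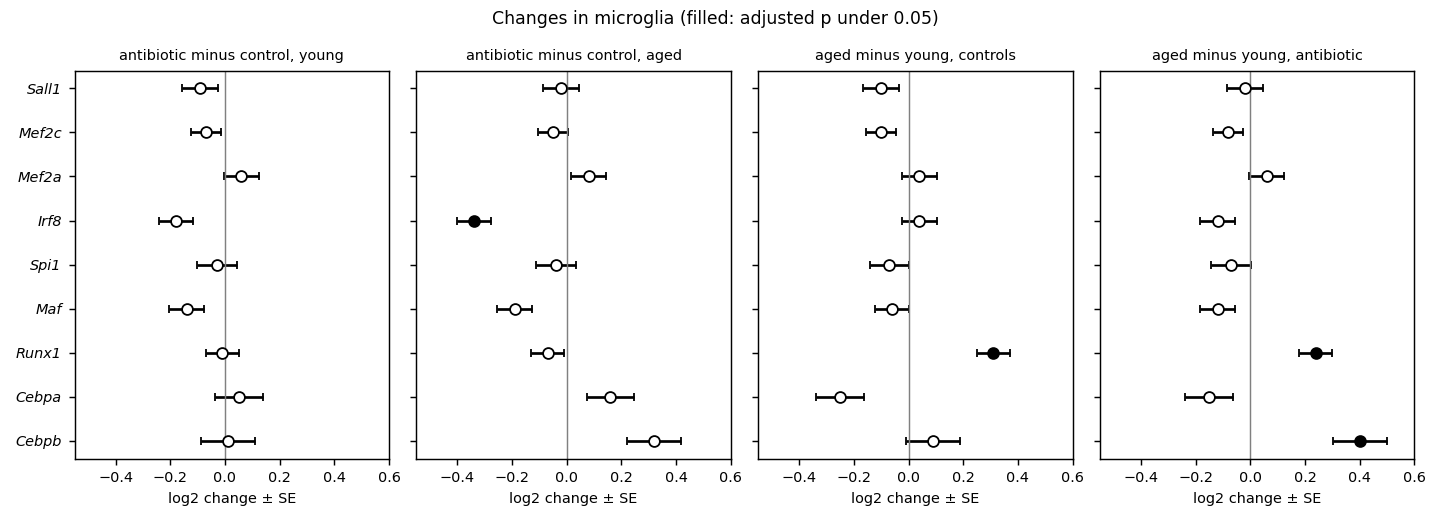
The horizontal axis is the log2 change with its standard error for each member in microglia, in 4 comparisons. Filled points passed an adjusted p of 0.05. Irf8 passed in aged mice after antibiotics (-0.34), Runx1 with age in controls (0.31) and in antibiotic mice (0.24), and Cebpb with age in antibiotic mice (0.40).

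Of the 38 other regulators, 2 rose and 3 fell with age in controls (13.2%) and 4 rose and 3 fell in antibiotic mice (18.4%), with list medians of -0.05 and 0.00. Of all tested genes 2.66% and 6.15% passed. The Krüppel-like factors Klf4 and Klf2, regulators of quiescence and inflammatory tone, fell in both arms. Klf4 went from 5.40 ± 0.685 to 3.27 ± 0.402 in controls (SD, n = 3 each), a log2 change of -0.72 (limma adjusted p = 0.000259), and by -0.35 in antibiotic mice (limma adjusted p = 0.0402). Klf2 changed by -0.59 and -0.49 (limma adjusted p = 0.00746 and 0.0156). Id2, an inhibitor of helix-loop-helix factors, rose by 0.45 and 0.56 (limma adjusted p = 0.0277 and 0.00311). Egr2 rose by 0.47 in controls (limma adjusted p = 0.0331) and Nr4a1 by 0.49 in antibiotic mice (limma adjusted p = 0.0284). Of the family members 1 of 17 passed, Irf7, an interferon-induced factor that rose by 0.47 in antibiotic mice (limma adjusted p = 0.0249).

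Of 11 receptors and ligands, 1 rose and 1 fell with age in controls (18.2%), and 2 rose and 2 fell in antibiotic mice (36.4%). Of all tested genes 2.66% and 6.15% passed. Csf1, a growth factor for microglia, rose from 0.474 ± 0.134 to 0.979 ± 0.195 in controls (SD, n = 3 each), by 0.99 (limma adjusted p = 0.00358), and by 0.91 in antibiotic mice (limma adjusted p = 0.00411). Its receptor Csf1r, itself a PU.1 target, fell by 0.27 in antibiotic mice (limma adjusted p = 0.0178). Ifngr1, a chain of the interferon-gamma receptor, fell by 0.24 and 0.28 (limma adjusted p = 0.0230 and 0.00554), and Csf2rb rose by 0.35 in antibiotic mice (limma adjusted p = 0.00726). Of 24 target genes, Cybb, an NADPH oxidase subunit, rose by 0.72 in controls (limma adjusted p = 0.0362), from 0.0963 to 0.188. In antibiotic mice 4 fell, namely Sparc (-0.38, limma adjusted p = 0.00554), P2ry12 (-0.33, limma adjusted p = 0.0102), Fcrls (-0.27, limma adjusted p = 0.0384) and Csf1r, which is on both lists.

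In BAM no member passed in any of the 6 comparisons, by limma, on pools of 17 to 62 cells. Irf8 was lower in antibiotic pools here too. The young control pools were at 3.03, 3.06 and 2.82, the young antibiotic pools at 2.22, 2.36 and 2.62, the aged control pools at 2.76, 2.10 and 2.97, and the aged antibiotic pools at 1.94, 1.61 and 1.48. Each antibiotic pool was below each control pool of its age. Pools did not overlap for 9.68% of all tested genes in young mice, 14.5% in aged mice and 0.749% at both ages in the same direction. The Irf8 differences were -0.30 (SE 0.177) in young, -0.62 (SE 0.177) in aged and -0.46 (SE 0.125, limma adjusted p = 0.319) over both. The 8 microglia markers in BAM summed to 30.3 to 47.2 in aged control and 16.7 to 25.5 in aged antibiotic pools, without overlap, and to 26.8 to 46.7 and 25.5 to 49.1 in the young groups. Their part in the Irf8 values was not tested. Cebpb was 6.69, 6.71 and 6.68 in young control pools and 11.5, 7.33 and 8.34 in young antibiotic pools, without overlap. The aged pools overlapped, at 10.3, 7.78 and 7.45 in controls and 11.8, 9.41 and 13.1 in antibiotic mice, with 0.42 over both ages (SE 0.123, limma adjusted p = 0.359). Sall1 in BAM was 0.0606, 0.0227 and 0.120 in aged antibiotic pools, below the 0.242 to 0.603 of young antibiotic pools. These pools did not overlap, as for 13.7% of all tested genes, and the difference was -1.91 (SE 0.446, limma adjusted p = 0.0880). That difference passed when pools were weighted by cells (adjusted p = 0.0311) and without young control 1 or 2 (adjusted p = 0.0428 and 0.0346). The microglia marker sums differed between these groups as well, and cluster 8, with Sall1 at 0.436 against 0.164 in cluster 3, made up 19.7% and 37.8% of BAM in these groups. Their part in the Sall1 values was not tested. In controls Sall1 differed by only -0.19 with age (SE 0.446, limma adjusted p = 0.969). The aged antibiotic pools also lay below the aged control pools, 0.125 to 0.432, as for 14.5% of all tested genes. That antibiotic difference was -1.49 (SE 0.446, limma adjusted p = 0.345). The antibiotic effect differed between the ages by -1.72 (SE 0.631, limma adjusted p = 0.762), and neither passed. The background in BAM was 2 of 8942 genes (0.0224%) after antibiotics in young mice, 11 (0.123%) in aged mice and 5 (0.0559%) for the ages combined. It was 0 (0%) for the difference, 4 (0.0447%) with age in controls and 7 (0.0783%) with age in antibiotic mice, of which 2 rose and 5 fell, or 2 and 3 with sums made equal. The members at an unadjusted p under 0.05 in these comparisons numbered 1, 4, 3, 1, 0 and 2 of 9, beside 512, 666, 629, 551, 544 and 703 of all 8942 genes.

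In Ly6CLow cells Maf was higher with age. Its pools were at 0.569, 0.610 and 0.420 in young controls and 1.00, 1.43 and 0.884 in aged controls, and at 0.395, 0.364 and 0.265 in young antibiotic mice and 1.31, 0.812 and 1.24 in aged antibiotic mice. Aged and young pools did not overlap in either arm, as for 20.6% of all tested genes in controls and 20.7% in antibiotic mice. The rise passed in antibiotic mice, 1.57 (SE 0.248, limma adjusted p = 0.00329), and not in controls, 0.97 (SE 0.248, limma adjusted p = 0.0820), where it passed with sums made equal (adjusted p = 0.0448) and without aged control 3 (adjusted p = 0.0342). In cells of at least 2000 raw UMIs the difference in antibiotic mice was 1.04 and no longer passed (adjusted p = 0.685), and in controls it was -0.24. In cluster 3 alone the differences were 1.56 (adjusted p = 0.347) and -0.29. The shallow clusters 1 and 9 had the highest Maf, and cluster 9 carried Gata3 and Il7r, as the ILCs of that cluster did. These clusters made up 3.36% and 0% of young control Ly6CLow cells and 19.2% and 11.9% of aged ones. In antibiotic mice they went from 3.20% and 0.800% to 19.8% and 10.2%. The 5 B cell markers in Ly6CLow cells summed to 0.100 to 1.31 per pool in young and 0.686 to 57.6 in aged mice, and their part was not tested.

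No other member passed in Ly6CLow cells. With age 65 of 8613 genes passed in controls (0.755%) and 168 in antibiotic mice (1.95%). Of these, 77 rose and 91 fell in antibiotic mice, or 100 and 53 with sums made equal. In controls 47 rose and 18 fell, or 65 and 9. The median change of all genes moved from -0.21 to -0.09 in controls under that scaling. In cells of at least 2000 raw UMIs 0 and 5 genes passed. After antibiotics 0 genes (0%) passed by limma in young mice, in aged mice, in both combined or in the difference, where 365, 535, 525 and 428 were at an unadjusted p under 0.05. On the same lists of related genes as in microglia, 2 of 40 other regulators and 1 of 27 target genes rose with age in controls. In antibiotic mice 5 target genes rose and 1 fell, with a list median of 0.28 beside -0.11 for all genes, 1 regulator fell and 1 of 12 receptors and ligands rose, and 0 of 21 family members passed in either arm. Depth and the shares of clusters 1 and 9 moved with age here as well, and their part was not tested. Irf8 pools of the Ly6CLow groups overlapped, at 1.78, 1.00 and 3.50 in young controls and 1.86, 0.424 and 1.78 in young antibiotic mice. The cytotoxic cluster 7, with Irf8 at 7.69, made up 13.4% and 8.80% of Ly6CLow cells in these groups. Its part in the Irf8 values was not tested.

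**Figure D5:**
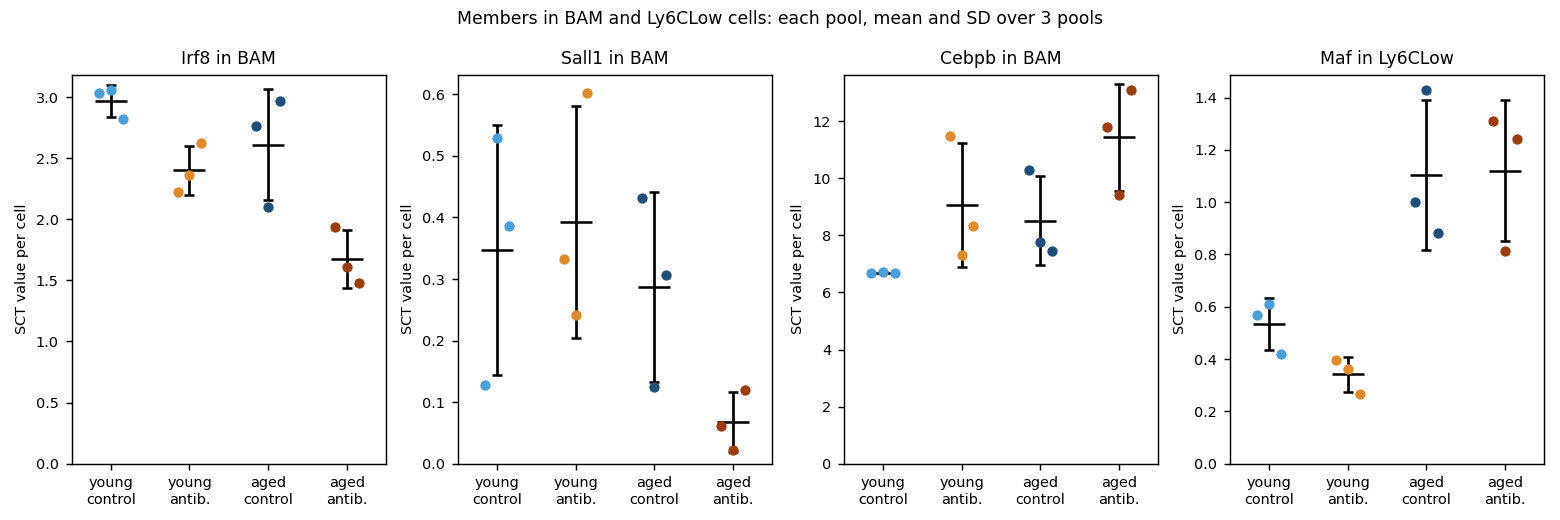
Points are pool means of the SCT value per cell by group, with the mean and SD over 3 pools, for Irf8, Sall1 and Cebpb in BAM and Maf in Ly6CLow cells. Irf8 in BAM is lower in antibiotic pools at each age (2.22 to 2.62 against 2.82 to 3.06 in young), and Maf in Ly6CLow cells is higher in aged pools (0.812 to 1.43) than in young ones (0.265 to 0.610). In cells of at least 2000 raw UMIs the Maf difference with age did not pass in either arm.

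In Ly6CHigh and Ly6C+Ly6G+ cells no gene passed in any of the 6 comparisons (0%) by limma. The genes at an unadjusted p under 0.05 numbered 132 to 1123 of 8220 and 111 to 419 of 6825. In Ly6CHigh cells Cebpb was 24.5 to 29.7 in young pools of both arms and 10.2 to 22.2 in aged pools, without overlap, as for 18.5% of all tested genes in controls and 19.4% in antibiotic mice. The differences were -0.84 in controls and -0.74 in antibiotic mice (SE 0.251, limma adjusted p = 0.348 and 0.255). Spi1 was 4.15 to 5.69 in young and 2.38 to 3.83 in aged pools. Irf8 was 1.60 to 2.97 in control and 1.00 to 1.98 in antibiotic pools, with -0.62 over both ages (SE 0.209, limma adjusted p = 0.992). The 8 microglia markers in Ly6CHigh cells summed to 1.33 to 5.77 in young and 6.97 to 17.4 in aged pools, and the 6 monocyte markers to 69.9 to 121 and 37.8 to 86.5. Their part in these values was not tested. In cells of at least 2000 raw UMIs the Cebpb differences were -0.17 and 0.06. The shallow cluster 1, with Cebpb at 5.91 against 30.2 in cluster 6, made up 2.47% and 3.28% of young control and antibiotic cells and 36.0% and 46.0% of aged ones. In Ly6C+Ly6G+ cells, with pools of 7 to 112 cells, the largest standard error of a member was 0.769 for a comparison of 2 groups, so small changes were not detectable. In the lymphoid types the members were not tested. Over all lymphoid cells Irf8 pools lay at 1.50 to 3.25 in young and 0.462 to 1.15 in aged mice. The share of all genes whose lymphoid pools separate with age was not computed, so these ranges are a description only. The mix of lymphoid types moved with age, with 5 to 31 CD8+ cells per pool in young and 56 to 122 in aged mice, and its part was not tested.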

How the data were processed

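The deposited RNA table gives a score per gene and cell, the SCT-corrected UMI value, per the file headers. The submitters' processing notes name Cell Ranger 3.0.2, Seurat 3.0.1 and mm10. Raw UMI counts per cell, SCT totals (a score), cell types, clusters and hashtag calls are as deposited in the authors' cell table, and 33 of its columns were not used. All 13052 cells were deposited as singlets by their hashtag call, which cannot see joined cells of the same pool. No further doublet filter was applied. Pools held 760 or more cells, and how cells were chosen is not given in the sources used here.

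For each type, the pool mean plus a pseudocount of 0.05 was put on the log2 scale. Genes whose mean over the pools reached 0.05 were tested with limma 3.58.1 (trended prior variance, all 12 pools, no covariates), with Benjamini-Hochberg adjustment over all genes within each of 6 comparisons and a threshold of 0.05. The fit was also run on simulated data, with settings and outcome not reported here. Levels by type used pools with at least 5 cells.

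The members and lists were chosen with earlier results of these data known. Members are always named, as are list genes past the threshold in microglia (the 2 largest rises and falls where over 4 passed). Pools are taken as separate samples, each of several mice. Of the genes most like a member, 2 are named for each, except for Cebpa and Spi1, where 1 is not reported here.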

Additional observations from a re-analysis of the deposited data

How the results depend on the processing

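Of 5349 recomputed member changes, 4954 kept their direction and side of the threshold, 19 lost and 13 gained a call, and 363 turned sign, of which 0 were called changes. By type 20 turned sign in microglia, 47 in BAM, 86 in Ly6CLow, 90 in Ly6CHigh and 120 in Ly6C+Ly6G+ cells. Of 243 recomputed levels 1 moved beyond its SD, Sall1 in microglia at 1.54 in cells of at least 2000 raw UMIs. Irf8 in microglia stayed called in aged mice and over both ages under every alternative run. Counts of called genes moved more, with 148 of 597 beyond 1.5 times, and the cause was not tested. Below, the comparisons of a type are antibiotic against control (young mice, aged mice, ages combined), the difference between ages, and age in controls and in antibiotic mice.

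In microglia the young count was 7 with a pseudocount of 0.5, 0 with no filter, 58 with means of log values, 22 in cells of at least 2000 raw UMIs, 23 with pools weighted by cells and 73 in cluster 0 alone. The aged count was 105 with no filter, 439 with means of logs, 459 in deep cells and 571 in cluster 0. Over both ages it was 209 with no filter, 711 in deep cells and 802 in cluster 0. The difference gave 4 with means of logs, 1 in deep cells and 2 in cluster 0. With age it was 145 in controls with no filter, and 821 in deep cells and 898 in cluster 0 in antibiotic mice. Leaving out each pool gave 0 to 26, 109 to 304, 262 to 528, 0 to 4, 103 to 242 and 271 to 542.

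In Ly6CLow cells means of logs gave 2 over both ages, 311 with age in controls and 448 in antibiotic mice. No filter gave 36 and 76 with age, deep cells 0 and 5, and weighting 105 in antibiotic mice. Cluster 3 alone gave 1 after antibiotics in aged mice, and 1 and 5 with age. Leaving out each pool gave 19 to 297 and 51 to 220 with age.

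In BAM the young count was 1 with a pseudocount of 0.5, no filter, deep cells or weighting and 0 with 0.01 or means of logs. The aged count was 7 with 0.5 or means of logs and 4 with no filter. Over both ages it was 0 with 0.5, 0.01 or no filter and 1 with means of logs. With age it was 2 in controls with 0.5, and 2 with 0.01, 3 with no filter, 14 with means of logs and 22 with weighting in antibiotic mice. Leaving out each pool gave 0 to 3, 0 to 14, 0 to 8, 0 to 2, 3 to 13 and 1 to 36.

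In Ly6CHigh cells means of logs gave 6 with age in controls and 150 in antibiotic mice, where deep cells gave 2 and weighting 15. Cebpb with age in antibiotic mice passed there with means of logs, at -1.04 (adjusted p = 0.0334). Leaving out each pool gave 0 to 34, 0 to 1, 0 to 5, 0 to 4, 0 to 1 and 0 to 84. In Ly6C+Ly6G+ cells the young count was 1 with 0.5 or sums made equal and 6 with weighting, which also gave 1 over both ages and 1 with age in controls. Leaving out each pool gave 0 to 1 in young mice and in both age comparisons.

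Residuals of pools with the same hashtag number correlated at -0.09 to 0.11. Within its arm the same number was the best match for hashtags 1, 2 and 3 (r = 0.07, 0.11 and 0.01). It was not for hashtags 4, 5 and 6. These low values did not show that the numbers pair the pools. With the hashtag number as a replicate block, the difference gave 3 genes in microglia, 1 in BAM and 1 in Ly6C+Ly6G+ cells. With age in antibiotic mice the block gave 104 in Ly6CLow, 12 in BAM and 11 in Ly6CHigh cells, and with age in controls 2 in Ly6C+Ly6G+ cells. Runx1 in microglia stayed called under the block (adjusted p = 0.00988 and 0.0232). Pools with as few as 6 Ly6CHigh and 7 Ly6C+Ly6G+ cells limit the precision there.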
